A study of Mus musculus with 4 samples.

Results

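Sostdc1/Fst basal cells are basal keratinocytes of mouse back skin chosen by their counts of Sostdc1, Fst, Aldh3a1 and Spock2 in single cells. A cell first had to pass a gate for basal keratinocytes, with at least 20 counts of Krt5 and Krt14 together, counts of Krt1 and Krt10 below 20% of that sum, fewer than 2 counts of Krt79, 0 counts of Lhx2 and fewer than 4 counts over 6 cell cycle genes. It was then taken as a member if its counts of the 4 marker genes summed to 2 or more. The rule found 1952 members among 9656 gated basal cells and 34150 cells in all. Of the rest of the gated cells, 1076 had a marker sum of 1 and 6628 a sum of 0, and these 6628 are called the other gated basal cells.

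The epidermis came from the back skin of female C57BL/6N mice at postnatal day 19, when the follicles rest. Both groups carry CerS4 fl/fl alleles of the ceramide synthase 4 gene, and CerS4epi-/- mice carry in addition a K14-Cre transgene, which acts in keratinocytes whose lineage has used the keratin 14 promoter, while control mice have no Cre. Each of the 2 control and 2 CerS4epi-/- mice gave 1 sample, called its library here, on the BD Rhapsody system. In this system single cells are caught in microwells and each transcript is marked by a unique molecular identifier (UMI). The study also labelled the cells with a multiplexing kit and separated the samples by their tags. The control libraries held 42619084 and 48497481 counts, with 8480 and 9086 cells kept, and the CerS4epi-/- libraries held 53106317 and 39231945 counts, with 9017 and 7567 cells kept.

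The libraries of a genotype stood together in their cell barcodes. The 2 control libraries shared 0 barcodes where independent draws would give 87.1, and the 2 CerS4epi-/- libraries shared 0 where 77.1 would be drawn, whereas pairs of opposite genotype shared between 64 and 102. The labels do not name a cartridge or a loading day, so whatever was shared within a genotype's pair of libraries and genotype itself cannot be told apart in any comparison below.

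The basal layer of the epidermis holds dividing keratinocytes attached to the basement membrane, and it runs without a break from the interfollicular surface into the mouth and the outer wall of the hair follicle. Along this sheet, bone morphogenetic proteins (BMPs), activins and Wnts are balanced by secreted antagonists. Sostdc1 binds BMPs and modulates Wnt signaling, follistatin (Fst) binds activin, Aldh3a1 is an aldehyde dehydrogenase with a role in detoxification, and Spock2 is a proteoglycan of the extracellular matrix.

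Sostdc1 lies on chr12:36364137-36368451, Fst on chr13:114588731-114595521, Aldh3a1 on chr11:61098363-61109247 and Spock2 on chr10:59942041-59971357 of build GRCm39. Because these genes chose the members, their levels are given as a description. Levels are CPM, the counts of a gene for every 1000000 counts summed over the cells of a population in each mouse. In members, Sostdc1 stood at 752 and 763 CPM in control and 629 and 586 CPM in CerS4epi-/- mice. Fst stood at 337, 232, 324 and 344 CPM in the same order of mice, Aldh3a1 at 453, 476, 609 and 624 CPM, and Spock2 at 28.7, 38.2, 89.9 and 142 CPM. Sostdc1 was therefore lower and Aldh3a1 and Spock2 were higher in the members of both CerS4epi-/- mice than in those of either control mouse, while the Fst levels overlapped. Sostdc1 was detected in 83.6% and 79.0% of control members and in 78.4% and 76.7% of CerS4epi-/- members. All 4 genes together were found in 4 and 5 control and 57 and 45 CerS4epi-/- members, and neither Sostdc1 nor Fst in 16 and 27 control and 85 and 64 CerS4epi-/- members. Spock2 was detected in 6.31% and 7.78% of control members and in 21.3% and 27.0% of CerS4epi-/- members.

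A cell with 1 of the markers held another more often than a cell without it, which describes the genes of the rule. In control mouse 1, for example, 159 of the 364 gated cells with Sostdc1 also held Aldh3a1. The share of gated cells with Sostdc1 was 6.92 and 6.12 times higher where Aldh3a1 was detected than where it was not in control mice, and 2.85 and 3.08 times higher in CerS4epi-/- mice. For Sostdc1 by Fst the ratio was 5.53 and 5.85 against 2.64 and 2.84, and for Aldh3a1 by Fst it was 6.58 and 5.93 against 3.03 and 3.11. Each ratio was thus lower in both CerS4epi-/- mice than in either control mouse. Where Aldh3a1 was detected, the share with Sostdc1 was 60.7% and 47.5% in control and 59.8% and 58.8% in CerS4epi-/- mice. Where it was not, the share was 8.77% and 7.75% against 21.0% and 19.1%, so this ratio was lower through a higher share without Aldh3a1. With every cell thinned to 1200 UMIs the lowest of the 3 ratios in any mouse was 2.82, and those of CerS4epi-/- mice again lay below those of control mice. The most frequent combination in each mouse was Sostdc1 with Aldh3a1, in 97, 78, 202 and 126 members. Sostdc1 as the sole marker, with 2 or more counts, accounted for 64, 53, 98 and 63 members.

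Members were a larger share of the gated basal cells in both CerS4epi-/- mice than in either control mouse. They made up 12.2% (95% Wilson interval 10.99 to 13.5) and 9.58% (8.53 to 10.8) of gated basal cells in control mice, and 33.8% (31.9 to 35.6) and 28.5% (26.6 to 30.6) in CerS4epi-/- mice. The intervals cover counting error only. The mean share was 10.9% ± 1.85 (SD, n = 2) in control and 31.2% ± 3.69 (SD, n = 2) in CerS4epi-/- mice, a ratio of 2.86. The difference is given as a description, since an exact two-sided permutation test of 2 mice against 2 cannot give a p below 0.333. Cells thinned to 1200 UMIs gave 6.81% and 5.63% in control and 20.5% and 17.0% in CerS4epi-/- mice, with 1 or 2 cells per mouse left out as too shallow. Among cells with at most 10% mitochondrial counts the share was 11.97% and 11.4% against 26.7% and 27.1%.

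**Figure D1:**
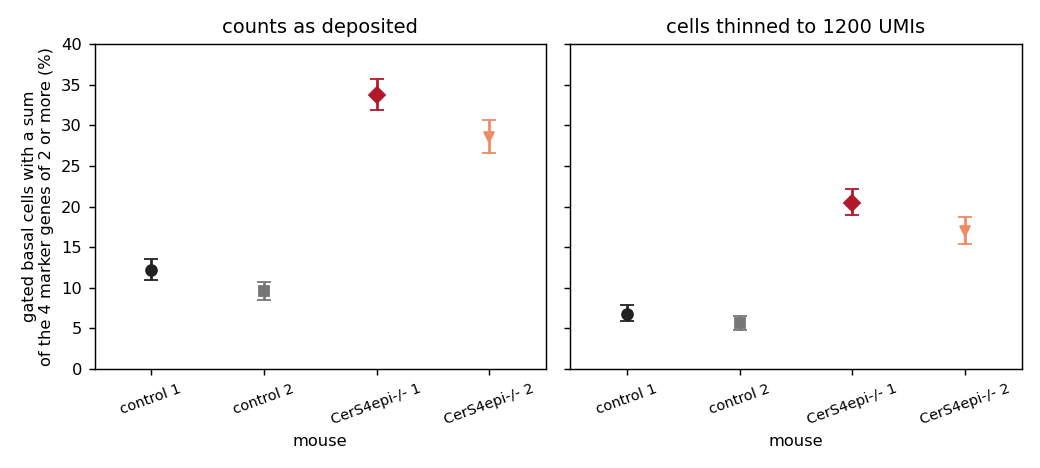
Share of gated basal cells (%) with a summed count of Sostdc1, Fst, Aldh3a1 and Spock2 of 2 or more in each of the 4 mice, as deposited (left) and with each cell thinned to 1200 UMIs (right). Points are mice and bars are 95% Wilson intervals, and both CerS4epi-/- mice lie above both control mice in either panel.

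The same marker sum was counted in cells outside the gate as a background. Of T cells, which should lack these genes, 1.98% and 1.59% in control and 2.92% and 3.70% in CerS4epi-/- mice reached a sum of 2, at median depths of 1615, 1540, 1926 and 1759 counts. Of spinous keratinocytes, which are deeper at medians of 4988, 4905, 6487 and 5735 counts, 13.3% and 11.1% reached it in control and 22.2% and 18.5% in CerS4epi-/- mice. Basal cells taken out by the gate reached it more often than gated cells in each mouse, at 47.7%, 41.7%, 55.1% and 40.4% of the Krt79-positive and 32.4%, 25.9%, 40.7% and 35.6% of the Lhx2-positive cells. Their median depths were 4759.5, 3632.5, 5348.5 and 5080 counts and 3713, 3413, 3792 and 3568 counts. Both lay above the medians of members and of the other gated basal cells in each mouse. The part of depth in reaching a sum of 2 was not tested in them. Over all cells kept, 15.9% and 12.7% in control and 30.4% and 27.9% in CerS4epi-/- mice reached it, so in control mice the gated share lay below that of all cells and of spinous cells. The gated shares lay above the T cell shares in every mouse. The ratio between the genotypes was 1.86 in T cells, 1.67 in spinous cells, 1.07 in Krt79-positive cells, 1.31 in Lhx2-positive cells and 2.04 over all cells kept, against 2.86 in gated cells, and whether these ratios differ was not tested. The markers were thus not confined to the gated cells, and the part of this background in the member share was not tested.

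The threshold cuts a continuous range. Just outside it, with a marker sum of 1, lay 190, 234, 370 and 282 cells, and just inside it, with a sum of 2, lay 100, 88, 200 and 144 cells. Sums of 5 or more were held by 106 of 317 and 81 of 257 members in control and by 395 of 837 and 233 of 541 members in CerS4epi-/- mice. A member of a CerS4epi-/- mouse was thus more often far inside the threshold. Median counts per member were 2496 and 2285 in control and 2761 and 2606 in CerS4epi-/- mice, and median mitochondrial shares were 9.79% and 8.89% against 11.8% and 10.98%. The other gated basal cells were deeper in each mouse, at medians of 2906 and 2698 counts in control and 3737 and 3251.5 in CerS4epi-/- mice. Their median sums of Krt5 and Krt14 were 50, 43, 78 and 57 counts, against 31, 31, 35 and 30 in members.

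Of the 6 genes given as markers of these cells, Igfbp4 and Abi3bp were not used by the rule, although they come from the cells it chose. Igfbp4, a binding protein of insulin-like growth factors, stood at 94.7, 39.7, 296 and 416 CPM in members and at 15.96, 15.89, 53.2 and 43.1 CPM in the other gated basal cells. Abi3bp, an extracellular matrix protein, stood at 164, 98.5, 82.9 and 85.9 CPM in members and at 7.67, 8.81, 4.68 and 12.7 CPM in the others. Both were higher in members within each of the 4 mice. A position in the skin was not measured in these libraries, so nearness to the follicle can be neither read nor refused from them, and the cells are named here by their genes.

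In each mouse a program of further genes went with the markers. Of 3443 genes with at least 50 CPM in the higher population, 41 (1.19%) were at least 2-fold higher and 36 (1.05%) at least 2-fold lower in members than in the other gated basal cells in all 4 mice, with 2 CPM added to both levels. The rule used this contrast, so the counts and ratios describe the members and carry no test. With cells thinned to 1200 UMIs the counts were 45 and 40 of 3463 genes.

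Transcription factors were among the genes that were higher in members. Gata6, a factor of the upper follicle and sebaceous duct lineages, stood at 83.0, 42.6, 76.6 and 111 CPM in members and at 1.72, 2.52, 4.09 and 4.76 CPM in the other gated basal cells, and its ratio ranged from 9.88 to 22.9. Foxc1, a factor known from follicle stem cells, stood at 72.5, 41.2, 65.6 and 91.4 CPM in members, with ratios from 7.43 to 8.54. Runx1, a factor of follicle and mesenchymal development, stood at 65.5, 61.8, 61.3 and 79.8 CPM, with ratios from 4.42 to 6.46. Of the factors chosen after their values were seen, Sox9, a follicle lineage factor, had ratios from 3.91 to 14.5, Irx1 from 3.58 to 6.42, Sox7 from 2.32 to 9.24 and the vitamin D receptor Vdr from 2.34 to 3.52.

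Of secreted proteins, Cxcl12, a chemokine, was 5.06 to 12.8 times higher in members, and Scube2, a secreted protein that helps to release Hedgehog, was 5.35 to 8.36 times higher. The antimicrobial beta-defensins Defb6 and Defb1 were 4.13 to 9.25 and 4.12 to 5.53 times higher. C1qtnf12, an adipokine of the C1q and tumor necrosis factor family, had ratios from 4.12 to 5.26. Of lipid enzymes, the epidermal lipoxygenase Alox12e had ratios from 4.71 to 16.5, and the acyl-CoA thioesterase Acot1 from 4.69 to 9.10. The other genes described by their ratio were Vsnl1, a neuronal calcium sensor, with 8.49 to 11.8, Serpina3g, a serine protease inhibitor whose close paralogues share reads with it, with 4.28 to 6.60, and the glycerol channel Aqp3, with 4.08 to 12.9.

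Among the genes that were lower in members, the growth factor gene Bmp4 stood at 23.4, 25.0, 15.8 and 19.6 CPM in members and at 77.3, 74.4, 68.0 and 63.9 CPM in the other gated basal cells, 2.83 to 3.93 times lower. Igfbp7, another binding protein of the growth factor family, was 2.79 to 4.08 times lower, and Il1r2, the decoy receptor of interleukin 1, was 3.05 to 4.202 times lower. Ptgs2, the inducible prostaglandin synthase, was 3.02 to 5.93 times lower. Ndufa4l2, a mitochondrial protein of the hypoxia response, was lower by 3.81 to 7.73 times and the imprinted non-coding RNA H19 by 3.52 to 18.2 times. The others were Gdpd2 (3.42 to 4.88), Serpinb7 (3.15 to 3.82), Chit1 (3.06 to 6.74) and Slc4a8 (2.79 to 5.73 times lower).

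These levels shifted with the marker sum, though not at each step in each mouse. In control mouse 1, Gata6 went from 1.72 CPM at a sum of 0 through 9.12, 43.7 and 78.6 CPM to 119 CPM at sums of 5 or more. In CerS4epi-/- mouse 2 the same steps gave 4.76, 14.6, 37.2, 77.8 and 173 CPM. Abi3bp went from 8.81 to 147 CPM in control mouse 2 and from 4.68 to 123 CPM in CerS4epi-/- mouse 1 between the lowest and the highest class. In the opposite direction Ly6a, which encodes the Sca1 antigen of interfollicular basal cells, went from 948, 1232, 1097 and 1095 CPM at a sum of 0 to 267, 533, 285 and 191 CPM at 5 or more. Among the steps against these directions, Igfbp4 in control mouse 2 stood at 45.5 CPM at a sum of 2 and at 36.8 CPM at 5 or more, Ly6a in the same mouse went from 340 CPM at 3 to 4 to 533 CPM at 5 or more, and Runx1 in control mouse 1 went from 79.4 CPM at a sum of 2 to 54.7 CPM at 5 or more.

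**Figure D2:**
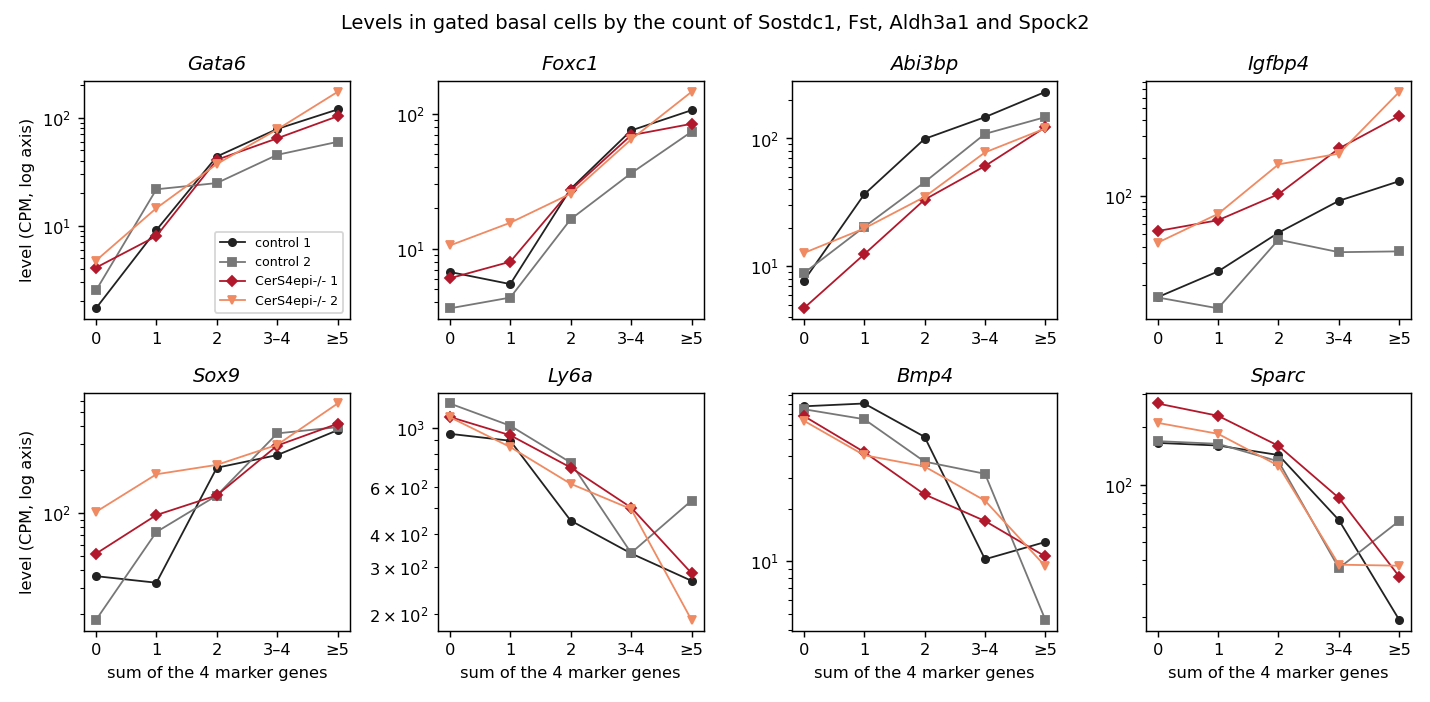
Levels (CPM, log axes) of 8 genes in gated basal cells by the summed count of the 4 marker genes, with 1 line per mouse. Gata6, Foxc1, Abi3bp, Igfbp4 and Sox9 are higher and Ly6a, Bmp4 and Sparc lower at sums of 5 or more than at a sum of 0 in each of the 4 mice.

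Members differed among themselves by which markers they held. Those with Sostdc1 as the sole marker had 18.97, 33.6, 21.9 and 24.4 CPM of Gata6, whereas those with Sostdc1, Fst and Aldh3a1 together had 112, 58.1, 84.1 and 151 CPM. Igfbp4 was at 12.6, 33.6, 65.8 and 127 CPM in the former and at 67.3, 38.7, 428 and 680 CPM in the latter, and in members with Spock2 it was at 269, 73.4, 530 and 712 CPM. The triple-positive and the Spock2-positive members thus held more of both genes than the members with Sostdc1 alone in every mouse. For Igfbp4 in control mouse 2, however, the triple-positive members were close to those with Sostdc1 alone, at 38.7 against 33.6 CPM. Members without Sostdc1 were not the weakest, with 188, 42.0, 93.2 and 102 CPM of Gata6. The subsets are small in control mice, with 52 and 38 triple-positive and 20 and 20 Spock2-positive cells.

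Lists of compartment genes were summed to place the members among basal keratinocytes. Their basal interfollicular list, 12 genes led by Mt1, summed to 10533, 10665, 10698 and 10698 CPM, against 14650, 13969, 13165 and 12453 CPM in the other gated basal cells. Of this list 8 genes were lower and 3 higher in members in all 4 mice. The upper hair follicle list of 13 genes, led by Krt17, summed to 1256, 1035, 1401 and 2175 CPM in members and to 435, 414, 962 and 1807 CPM in the others. It reached 8746, 14392, 36403 and 42792 CPM in basal cells with 2 or more counts of Krt79, a keratin of the upper follicle, far above the members in each mouse. Members thus lay between both levels for this list, and the gate itself had taken out the cells with 2 or more counts of Krt79. A Krt79 count of 1 was held by 20 and 13 members in control and by 85 and 57 members in CerS4epi-/- mice.

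The outer bulge list was higher in members only when its most abundant gene was left out. It summed to 10348, 9556, 8375 and 8349 CPM, most of it Krt15, which basal interfollicular cells also express, against 10833, 10731, 9396 and 9745 CPM in the other gated basal cells. Without Krt15 it summed to 1147, 965, 1313 and 1411 CPM in members and to 386, 374, 592 and 599 CPM in the others, and of its 16 genes 10 were higher and 2 lower in members in all 4 mice. Its defining surface marker Cd34 was at 0, 0, 0 and 1.23 CPM, and Krt75 of the inner bulge was at most 8.19 CPM. The sebaceous gland list, led by Mgst1, summed to 137, 144, 207 and 210 CPM, against 6868 to 37070 CPM in the Krt79-positive cells. Lists for other cell types were near 0: fibroblast genes summed to at most 9.64 CPM, melanocyte genes to at most 21.1, Merkel cell genes to at most 2.12, T cell genes to at most 22.1 and endothelial genes to at most 6.95 CPM. Langerhans cell genes, led by H2-Ab1, summed to 30.4, 30.9, 49.4 and 175 CPM, so CerS4epi-/- mouse 2 stood above the other 3 mice.

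**Figure D3:**
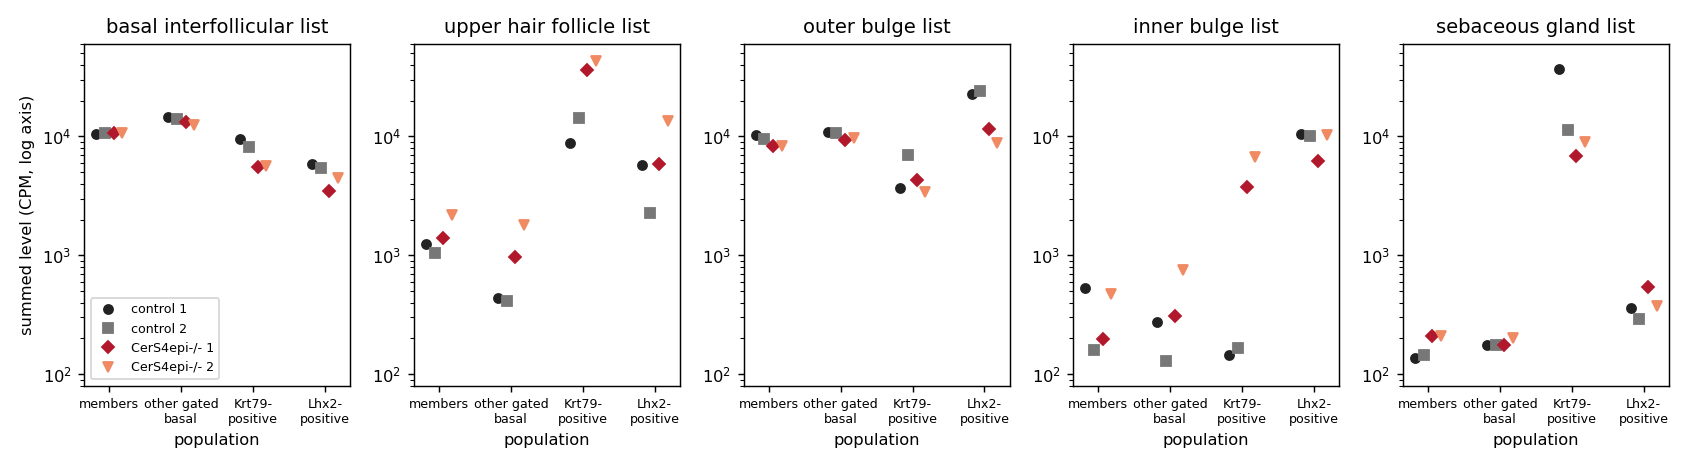
Summed levels (CPM, log axes) of 5 compartment gene lists in members, other gated basal cells, Krt79-positive and Lhx2-positive basal cells, with 1 point per mouse. Members exceed the other gated basal cells for the upper hair follicle list in every mouse but stay below the Krt79-positive cells, whose lists reach 42792 CPM.

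Cers4, the deleted gene, was almost absent from the members of both genotypes, at 0, 1.47, 1.93 and 2.45 CPM. The deletion therefore cannot be checked in them. In Krt79-positive basal cells Cers4 stood at 1649 and 873 CPM in control and at 47.8 and 83.5 CPM in CerS4epi-/- mice, so where the gene is used its level followed the labels.

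The genotypes were then compared within the members, over counts summed per mouse, with edgeR's quasi-likelihood test and Benjamini-Hochberg adjustment over all 9274 genes tested. In CerS4epi-/- members 61 genes (0.658% of those tested) were higher and 34 (0.367%) were lower at an adjusted p below 0.05, and for all 95 the levels of the genotypes did not overlap, as for 44.9% of all genes tested. The 61 include Aldh3a1 and Spock2, which the rule used and which are left out below. A further fact bears on every gene here: 33 of the 91 called genes that were also fitted in the other gated basal cells were called there too. When only cells with at most 10% mitochondrial counts were kept, 170 and 175 control and 228 and 197 CerS4epi-/- members, 3 genes were higher and 2 lower among 7100 tested. Of the 24 genes named below for the size of their change, 21 could be fitted there, 21 kept their direction and 14 had a change at least as large. DESeq2, adjusted over all 9274 genes as an alternative added after the data had been seen, called 31 higher and 18 lower, and it called 15 of those 24 genes.

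Stra6, the membrane receptor that takes up retinol from its carrier in blood, had the largest fitted rise. It was at 0 and 0 CPM in control members and at 104 and 78.5 CPM in CerS4epi-/- members, from 0 and 397 counts. Against a floor of 3 counts over the control group, the level was at least 46.6-fold higher (adjusted p = 0.0001, edgeR). In the other gated basal cells it was at most 1.06 CPM in any mouse, in cells with a marker sum of 1 at 0, 0, 15.3 and 8.32 CPM, and in Krt79-positive basal cells at 0, 0, 67.9 and 20.7 CPM. Stra6 is not among the named genes, listed further below, whose genotype change differed between members and the other gated basal cells by the interaction test. In CerS4epi-/- mice Stra6 also went from 39.2 and 48.8 CPM in members with a sum of 2 to 155 and 104 CPM in those with 5 or more. The gene lies on chr9:57970967-58063543 (GRCm39).

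Igfbp4 rose in members by 2.40 ± 0.26 (log2 fold change, SE; adjusted p = 0.00106, edgeR; levels above). Leaving out 1 mouse gave changes of 1.95 to 3.20 in members. Igfbp4 rose in the other gated basal cells too, by 1.65 (adjusted p = 0.000548, edgeR). The difference between the 2 changes of populations, 0.76 ± 0.27, did not pass the threshold (adjusted p = 0.284, edgeR). Of the list of IGF binding proteins and receptor genes, 8 were tested in members and Igfbp4 alone was called, with a median log2 change of 0.10 against -0.0035 for all genes tested.

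Of the other named rises, Hk2, a hexokinase of glycolysis, stood at 10.5 and 4.41 CPM in control and at 40.9 and 46.6 CPM in CerS4epi-/- members (log2 change 2.51 ± 0.34, adjusted p = 0.00484, edgeR). Cpe, carboxypeptidase E, which trims peptide hormones, stood at 22.2 and 32.4 against 81.4 and 174 CPM (2.26 ± 0.37, adjusted p = 0.0134). Cyp27a1, the sterol 27-hydroxylase, stood at 17.5 and 5.88 against 49.4 and 57.4 CPM (2.14 ± 0.33, adjusted p = 0.00951, edgeR). Leaving out 1 mouse gave changes of 2.09 to 3.325 for Hk2, 1.655 to 2.74 for Cpe and 1.64 to 3.205 for Cyp27a1. The chemokines Cxcl1, which attracts neutrophils, and Ccl2, which attracts monocytes, went from 29.2 and 23.5 to 92.2 and 115 CPM and from 14.04 and 13.2 to 40.1 and 65.7 CPM. Their log2 changes were 1.99 ± 0.21 and 1.95 ± 0.34 (adjusted p = 0.000994 and 0.0177).

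Cald1, the actin-binding caldesmon, rose in the other gated basal cells as well. It stood at 7.02 and 4.41 against 34.7 and 109 CPM in members (3.55 ± 0.71, adjusted p = 0.0354, edgeR), and its change in the others was 3.82 (adjusted p = 0.0055). Leaving out 1 mouse gave Cald1 changes of 2.605 to 4.23 in members. Lbh, a transcriptional cofactor, was at 2.34 and 0 against 14.7 and 25.8 CPM, and Icosl, a costimulatory ligand of T cells, at 2.34 and 0 against 12.7 and 25.2 CPM. Their changes were 3.85 and 3.75 with all mice. Both calls were lost without CerS4epi-/- mouse 2, at 3.46 and 3.26. They were also lost with at least 2000 counts per cell (adjusted p = 0.059 and 0.0757, edgeR) and by DESeq2 (adjusted p = 0.131 and 0.173). Without control mouse 1 the changes were 8.00 and 7.90, where the remaining control mouse was at 0, so these sizes are no measure of fold. Lce1a1 and Lce1a2, cornified envelope genes so alike that reads may be split between them, were at 4.91 and 42.8 against 134 and 265 CPM and at 3.51 and 57.5 against 123 and 301 CPM. Neither was called by DESeq2, and leaving out 1 mouse gave changes of 2.25 to 5.42 and 1.90 to 5.90. The Lce1a1 change of 3.21 turned to -0.17 (adjusted p = 0.944, edgeR) when the deepest 5% of members of each mouse and those with 2 or more immune counts were left out.

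**Figure D4:**
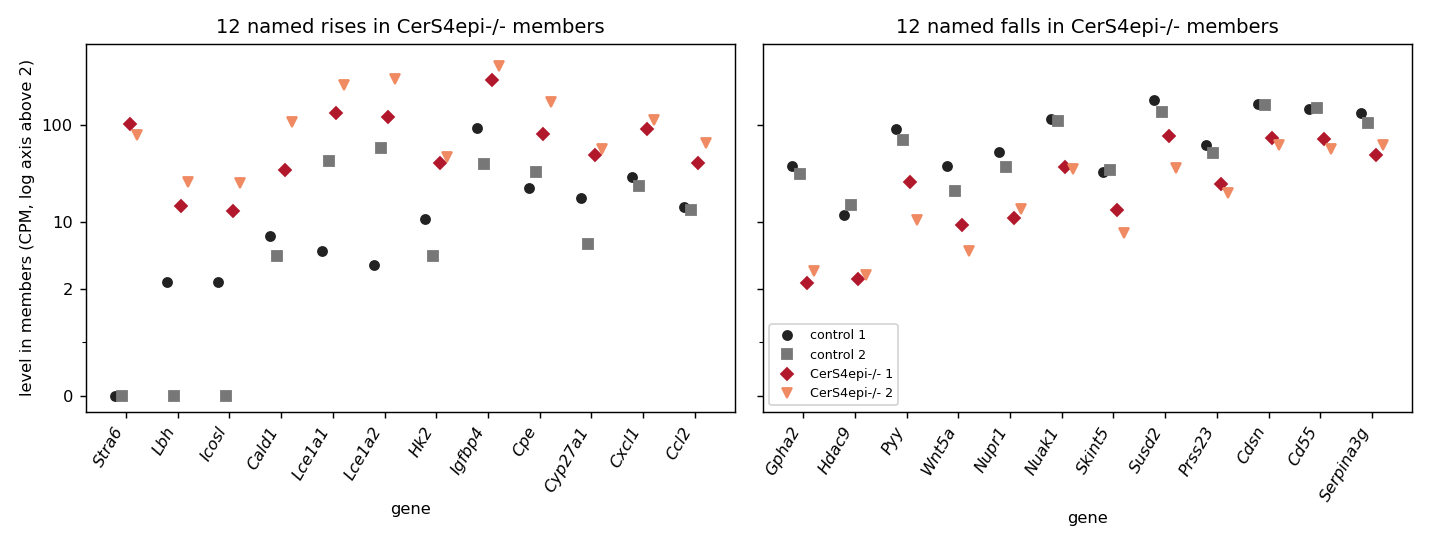
Levels in members (CPM, log axis above 2 CPM and linear below) of the 12 named rises and the 12 named falls, with 1 point per mouse. The genotypes do not overlap for any of the 24 genes, as for 44.9% of all genes tested, and Stra6 is at 0 in both controls.

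Among the genes that fell, Gpha2, a glycoprotein hormone subunit known from epithelial stem cells, had the largest change. It stood at 37.4 and 30.9 CPM in control and at 2.31 and 3.07 CPM in CerS4epi-/- members (-3.63 ± 0.39, adjusted p = 0.000994, edgeR), and it fell by 2.06 on the log2 scale in the other gated basal cells (adjusted p = 0.000335). Nuak1, a kinase of the AMPK family, stood at 116 and 112 against 36.6 and 35.0 CPM (-1.62 ± 0.16, adjusted p = 0.000994). Wnt5a, the ligand of noncanonical Wnt signaling, stood at 37.4 and 20.6 against 9.26 and 4.91 CPM (-1.93 ± 0.40, adjusted p = 0.0426). It rests on 46 and 32 counts and did not pass without control mouse 1, with a change of -1.41, or by DESeq2 (adjusted p = 0.156). Wnt5a was the gene called among 26 tested Wnt ligands and receptors, whose median change was 0.07.

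The other named falls were of mixed kinds. Pyy, peptide YY, stood at 91.2 and 70.6 against 25.5 and 10.4 CPM, Nupr1, a stress-induced chromatin protein, at 52.6 and 36.8 against 10.8 and 13.5 CPM, and Cd55, which restrains complement, at 147 and 150 against 72.5 and 56.8 CPM. With a marker sum of 3 or more the call of Pyy was lost, at a change of -1.47 against -2.04 (adjusted p = 0.0691, edgeR). Its change was -2.91 to -1.62 with 1 mouse left out. Susd2, a membrane protein, went from 182 and 137 to 78.3 and 36.2 CPM, Prss23, a serine protease, from 63.2 and 51.5 to 24.3 and 19.6 CPM, and Serpina3g from 135 and 106 to 49.6 and 62.0 CPM. Skint5, of the family that selects epidermal T cells, went from 32.8 and 34.5 to 13.1 and 7.67 CPM, and Hdac9, a histone deacetylase, from 11.7 and 14.7 to 2.51 and 2.76 CPM. The call of Hdac9 was lost when any of the 4 mice was left out, at changes of -2.55 to -2.22. Those of Susd2, Prss23 and Skint5 were lost without control mouse 1, at changes of -1.15, -1.16 and -1.67 against -1.40, -1.32 and -1.60 with it (adjusted p = 0.0757, 0.0671 and 0.0588, edgeR). DESeq2 called none of these 4 genes. Cdsn, corneodesmosin of the cornified layer, went from 166 and 163 to 73.7 and 62.0 CPM, but its log2 change of -1.23 became 0.10 (adjusted p = 0.905, edgeR) without the deepest 5% and the immune-positive members. With Krt79 = 0 the change of Cdsn was -0.61 and did not pass either (adjusted p = 0.424, edgeR).

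Immediate-early genes are switched on within minutes of stimulation and rise during tissue dissociation. Of 17 tested in members, 6 fell, where 0.367% of all genes tested did, and 0 rose, with a median log2 change of -0.25 against -0.0035 for all genes. Btg2, an antiproliferative factor, stood at 777 and 776 CPM in control and at 357 and 410 CPM in CerS4epi-/- members (-0.98 ± 0.10, adjusted p = 0.000994, edgeR). Nr4a1, a nuclear receptor, went from 1008 and 1026 to 618 and 650 CPM, the stress factor Atf3 from 1374 and 1487 to 863 and 1005 CPM, and Klf6 from 1085 and 1201 to 718 and 798 CPM. Zfp36, which destabilizes mRNA, and Fosb, a subunit of the AP-1 factor, fell by 0.44 and 0.38 on the log2 scale (adjusted p = 0.0107 and 0.0271), while Fos, at 4896, 5180, 4801 and 4599 CPM, did not pass (adjusted p = 0.755, edgeR). DESeq2 with adjustment over all genes tested called 5 of the list, Btg2, Nr4a1, Atf3, Klf6 and Zfp36, and did not call Fosb. Restricted to cells with at most 10% mitochondrial counts, 0 of the 17 were called in members by edgeR, 8 were below an unadjusted p of 0.05, and the median was -0.12.

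BMP, activin and TGF-beta genes, among which Sostdc1 and Fst act, gave 0 calls by edgeR in members outside the rule genes. This held for 6 tested ligands with a median of 0.58, 6 antagonists with a median of -0.21, 13 receptors and Smads with a median of 0.04, and 10 targets with a median of 0.07. At an unadjusted p below 0.05 there were 3, 2, 3 and 5 genes in these lists, as were 1154 of all 9274, and DESeq2 with adjustment over all genes tested called 0. In the other gated basal cells 1 of 9 ligands was lower and 2 of 10 targets were higher, where 0.574% and 1.6% of all genes tested were. In the difference, 1 of 10 targets changed more downward in members, where 0.873% of all genes did. Bmp7, the most abundant ligand of the list, stood at 97.1, 82.3, 96.8 and 138 CPM, and Id1, a BMP target, at 43.3, 38.2, 46.7 and 62.6 CPM in members. Id1 was 2.31 to 2.90 times and Bmp7 1.75 to 2.33 times higher in members than in the other gated basal cells, while Bmp2 was 1.53 to 2.64 times lower. Between genotypes, Bmp7, Id1 and Bmp2 had adjusted p of 0.413, 0.44 and 0.266 in members (edgeR). Id1 and Bmp2 were chosen after their values were seen.

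The remaining lists had between 0 and 2 calls. The upper hair follicle list had 2 of 10 higher, the proline-rich envelope precursor Sprr1a (57.3 and 27.9 against 122 and 152 CPM) and Defb6 (144 and 64.7 against 210 and 277 CPM), with a median of 0.55. The basal interfollicular list had Ly6e higher among 12 tested (194 and 128 against 302 and 425 CPM), the sebaceous list Mgst1 higher among 7 (31.6 and 22.1 against 75.2 and 85.3 CPM), and the stress and wound list Cxcl1 higher among 9. By DESeq2 with adjustment over all genes tested, Sprr1a, Ly6e, Mgst1 and Cxcl1 were called and Defb6 was not. With all mice the medians of the upper hair follicle and the stress and wound lists were 0.55 and 0.85. They were 0.87 and 1.19 without CerS4epi-/- mouse 1, and 0.22 and 0.16 without CerS4epi-/- mouse 2. With at most 10% mitochondrial counts 0 of 9 upper hair follicle genes were called by edgeR (4 below an unadjusted p of 0.05). The outer bulge list had Krt15 lower among 12 (9201 and 8591 against 7062 and 6938 CPM), which DESeq2 did not call (adjusted p = 0.268). By edgeR 0 genes were called among 13 of early differentiation, 3 of the inner bulge, 11 of Wnt feedback and inhibition, 22 of the basement membrane, 15 of interferon and antigen presentation, 18 of detoxification and 24 of sphingolipid metabolism, with medians of -0.24, 0.22, -0.20, -0.06, 0.01, 0.12 and -0.07. At an unadjusted p below 0.05 these lists held 6, 1, 4, 8, 0, 5 and 5 genes, and DESeq2 with adjustment over all genes tested called 0. The early differentiation median of -0.24 depended on single mice. It was -0.42 without CerS4epi-/- mouse 1 and without control mouse 1, -0.14 without control mouse 2 and -0.11 without CerS4epi-/- mouse 2.

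The other gated basal cells gave 190 genes higher (1.6% of 11851 tested) and 68 lower (0.574%). The difference between the genotype changes of the 2 populations was tested in itself, as an interaction with the mouse as a block. Of 11455 genes, 30 (0.262%) changed more upward in members and 100 (0.873%) more downward.

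Of the 17 immediate-early genes, 6 rose and 0 fell in the other gated basal cells, with a median of 0.35, and 12 had a lower change in members than in the others, with a median difference of -0.58. Fosb stood at 2804, 3138, 2162 and 2261 CPM in members and at 1977, 1896, 2585 and 2765 CPM in the other gated basal cells, a difference of -0.88 ± 0.08 (adjusted p = 1.41e-08, edgeR). Egr1 stood at 1924, 1839, 1634 and 1886 CPM in members and at 1227, 1078, 1534 and 1887 CPM in the others, a difference of -0.66 ± 0.09 (adjusted p = 1.15e-05). In control mice the members were thus above the other cells for both genes. In CerS4epi-/- mice they were below them for Fosb and close to them for Egr1. Both genes were picked from the list after their values were seen. With at most 10% mitochondrial counts, 3 of the 17 passed and the median difference was -0.38.

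Some genes of 3 keratinocyte lists also had a lower change in members, as had 2 of 12 outer bulge and 1 of 5 inner bulge genes. Of 12 basal interfollicular genes, 2 had a higher change and 0 a lower one. Over all genes fitted, 0.873% had a lower and 0.262% a higher change. In the other gated basal cells 7 of 13 upper hair follicle genes rose and 0 fell, with a median of 1.65, and 4 of 12 had a lower change in members, namely Krt17, Cst6, Sprr1a and the protease Klk7. These other cells still included some with a Krt79 count of 1. They were 48 of 2093 and 62 of 2191 cells in control and 90 of 1272 and 64 of 1072 in CerS4epi-/- mice. Their part in these changes was not tested. Of the early differentiation genes 5 of 15 rose and 1 fell in the others, and 6 of 15, Krtdap, Sbsn, Dsg1a, Dmkn, Klf4 and Cdkn1a, had a lower change in members, with a median difference of -0.55. Without CerS4epi-/- mouse 2, 1 of these 15 passed, and with at most 10% mitochondrial counts 1 of 13. Of the stress and wound list 6 of 12 rose and 1 fell in the others, and the wound keratins Krt16, Krt6a and Krt17 had a lower change in members among 14 fitted. Krt16 stood at 67.8, 35.3, 42.5 and 47.9 CPM in members and at 40.1, 23.4, 139 and 197 CPM in the others (difference -2.56, adjusted p = 1.41e-08, edgeR). Without control mouse 1 the differences of Krt6a and Sprr1a were -0.31 and -1.15 and did not pass. Without the deepest 5% of cells and the immune-positive cells in both populations, 1 of 12 upper hair follicle, 4 of 14 early differentiation and 1 of 12 stress and wound genes passed, while 13 of the 17 immediate-early genes did. These lists are described here after their values were seen.

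For several genes that marked members in control mice, the change in CerS4epi-/- mice was larger in the other gated basal cells. Aqp3 stood at 191, 181, 333 and 296 CPM in members and at 12.99, 12.3, 62.8 and 71.1 CPM in the others, so that its change was 0.80 in members, 2.44 in the others and -1.62 ± 0.18 in the difference (adjusted p = 6.08e-07, edgeR). Sox9 stood at 284, 290, 311 and 405 CPM in members and at 36.5, 18.1, 52.2 and 102 CPM in the others (difference -1.13, adjusted p = 0.00107). Sox7, a vascular and follicle-associated factor, stood at 45.6, 41.2, 44.8 and 35.0 CPM in members and at 3.91, 2.67, 18.1 and 9.25 CPM in the others (-2.17, adjusted p = 0.000221). Cxcl12 stood at 51.5, 45.6, 59.8 and 104 against 2.50, 1.73, 4.68 and 19.02 CPM (-1.58, adjusted p = 0.0368). In the others the changes of Aqp3, Sox9 and Sox7 passed the test and that of Cxcl12 did not (adjusted p = 0.071, edgeR). These levels remained higher in members than in the others within each mouse. Sox9, Sox7 and Cxcl12 were chosen here after their values were seen.

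In the other direction, Glul, the glutamine synthetase, stood at 514, 409, 735 and 1060 CPM in members and at 445, 315, 214 and 344 CPM in the other gated basal cells, a difference of 1.42 ± 0.12 (adjusted p = 1.48e-09, edgeR). Glul and Lgr6 were named after their values were seen. Lgr6, a Wnt-linked receptor of epidermal stem cells, stood at 25.7, 39.7, 35.5 and 33.8 CPM in members and fell from 93.5 and 119 to 39.6 and 43.9 CPM in the others (difference 1.47 ± 0.25, adjusted p = 0.000587). Hk2 and Cpe, named above, had differences of 2.20 ± 0.38 (adjusted p = 0.000587) and 2.02 ± 0.23 (adjusted p = 6.95e-07). Pyy and Wnt5a differed the other way, by -2.44 ± 0.38 (adjusted p = 0.000169) and -1.80 ± 0.36 (adjusted p = 0.00344), and in the others Wnt5a was at 41.9, 37.5, 35.7 and 35.1 CPM.

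**Figure D5:**
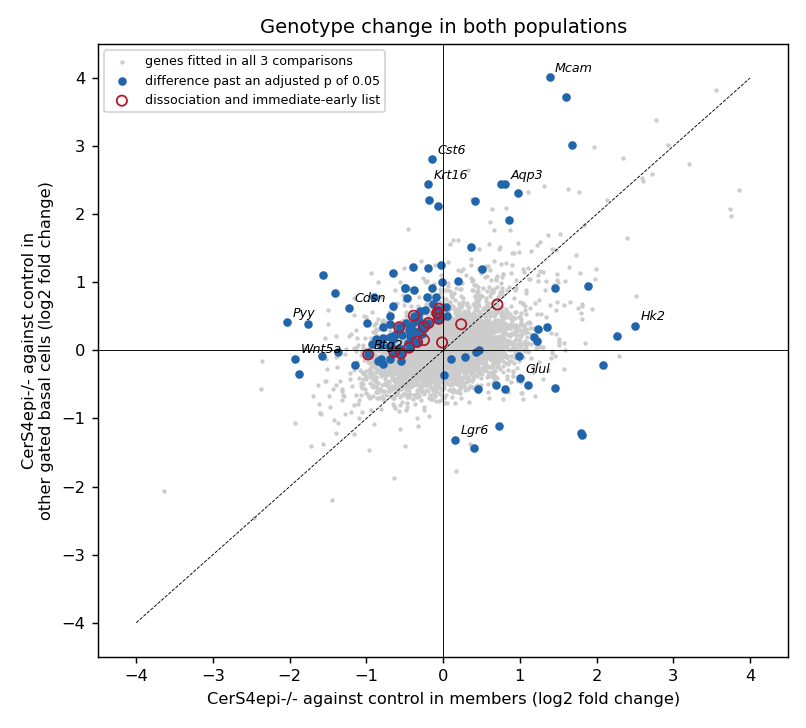
Log2 fold change of CerS4epi-/- against control in members (horizontal) and in other gated basal cells (vertical) for 9240 genes fitted in all 3 comparisons, without the rule genes in blue and with 1 gene outside the axes. Blue points are 124 genes whose difference passed an adjusted p of 0.05, open circles are the 17 immediate-early genes, 16 of which had a negative difference, and the dashed line marks equal change.

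The differences of greatest size each way were of other genes. Upward they were Cxcl9 (0, 0, 1.54 and 9.20 CPM in members), Cd7 (0, 0, 1.93 and 15.9), Krtap3-2 (0, 2.94, 19.5 and 101), Vim (2.34, 1.47, 3.86 and 20.2) and Cd74 (4.68, 8.82, 10.4 and 38.6 CPM). Cd7 and Cd74 are genes of immune cells, all 5 were highest in CerS4epi-/- mouse 2, and 4 of 5 genes of the Langerhans cell list (Cd74, H2-Aa, H2-Ab1 and H2-Eb1) differed upward, while the 5 of that list fitted in the other gated basal cells had a median of -1.21. Without the deepest and the immune-positive cells of both populations, 3 genes of that list could be fitted, and 0 were called or below an unadjusted p of 0.05 (edgeR). Downward they were Ptgds (11.7, 5.88, 0 and 0), Ninj2 (0, 20.6, 1.16 and 0), Cst6 (295, 39.7, 138 and 167), Klk10 (95.9, 16.2, 22.8 and 14.7) and Mcam (7.02, 4.41, 17.0 and 12.3 CPM). Control mouse 1 was the highest for Cst6 and Klk10, and without it their differences were -0.78 and -1.03 and did not pass.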

How the data were processed

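Epidermal cells of 2 control and 2 CerS4epi-/- mice were profiled on BD Rhapsody. The authors trimmed reads with fastp 0.23.2, mapped them with STAR 2.7.10a to GRCm39 (Gencode vM29) and deposited estimated counts (of UMIs) in every barcode for every gene. In these counts, reads that map to several genes are shared by expectation maximization, and near-identical paralogues are uncertain. Whether the counting used strand is not given in the sources used here. Of the entries, 4.3% to 4.5% were not whole. The submitters' processing notes also name Scanpy 1.9.1 and Seurat.

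As in the study, barcodes under 1200 counts or over 20% mitochondrial counts were dropped. The mitochondrial limit took out 68 of 8548 and 91 of 9177 barcodes with enough counts in the control libraries. In the CerS4epi-/- libraries it took out 363 of 9380 and 316 of 7883, and the effect of this difference on the results was not tested. No doublet caller was run. Sums of counts per population and mouse were rounded, and edgeR 4.0.16 (R 4.3.3) was used to filter them (filterByExpr), normalize them (TMM) and run the quasi-likelihood test, which was checked on simulated data. P-values were adjusted by the Benjamini-Hochberg method and called below 0.05. Ratios between populations use 2 CPM added. The study split cells into random pseudoreplicates, which was not done here. Locations are from Gencode vM39.

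The members and the 25 gene lists were chosen with earlier results of these data known. Named genes are the 12 rises and 12 falls of greatest size among called genes, without predicted or rule genes, the 15 highest and 10 lowest ratios to the other gated basal cells, the 5 largest differences each way, and up to 4 called or else the 2 most abundant genes of a list. Of these, 1 gene is not reported here. Further genes were picked after their values were seen. Alternatives were DESeq2 1.42.0, its size factors, no filter on low counts, a replicate block, each mouse left out, and other cell filters, thresholds and depths.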

Additional observations from a re-analysis of the deposited data

Results flagged for a closer look

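For 17 named genes the genotype change differed between members and the other gated basal cells by the interaction test (edgeR, adjusted p below 0.05). The differences, as log2 changes in members minus those in the others, were 13.8 for Cxcl9, 8.43 for Cd7, 4.79 for Krtap3-2, 3.21 for Vim, 3.12 for Cd74, 2.20 for Hk2 and 2.02 for Cpe. Downward they were -7.58 for Ptgds, -5.71 for Ninj2, -2.77 for Cst6, -2.62 for Klk10, -2.59 for Mcam, -2.44 for Pyy, -1.83 for Cdsn, -1.80 for Wnt5a, -1.52 for Nupr1 and -0.90 for Cd55.

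Cxcl9, Cd7 and Ptgds have a group at 0 in 1 population, so their fitted sizes depend on the prior count and are no measure of fold. The difference of Krtap3-2 ranged from 3.485 to 10.1 when 1 mouse was left out. For Cst6, Klk10, Cdsn and Vim the difference was -0.56, -0.47, -0.33 and 0.99, short of the threshold, when the deepest 5% of cells and the cells with 2 or more immune counts were left out of both populations, an alternative added after the data had been seen. Mcam at -2.60 and Ptgds at -6.79 did not pass there either, and Cxcl9, Cd7, Krtap3-2, Cd74 and Ninj2 could not be fitted. Hk2 at 2.35, Cpe at 2.44, Pyy at -2.34, Wnt5a at -2.04, Nupr1 at -1.58 and Cd55 at -0.95 passed there. Among cells with at most 10% mitochondrial counts, also added after the data had been seen, Hk2 at 2.996, Cpe at 2.53 and Pyy at -3.58 passed, while Wnt5a at -2.23, Nupr1 at -1.58 and Cd55 at -0.77 did not. The share of deep cells and of mitochondrial counts in these differences was not tested further.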

How the results depend on the processing

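With 2 mice per genotype, between 257 and 837 members per mouse and few counts for most genes, numbers of calls moved with the processing, and the causes were not tested. In members, where 61 genes were higher and 34 lower, DESeq2 called 25 higher and 25 lower, but its independent filtering left 1543 of the 9274 genes with an adjusted p, and adjusted over all of them it called 31 and 18. Without the filter on low counts there were 268 and 135, with at least 2000 counts per cell 36 higher, with at most 10% mitochondrial counts 3 and 2, with a marker sum of 3 or more 93 and 80, with Krt79 = 0 54 lower, and without the deepest 5% and immune-positive members 117 and 100. Leaving out a mouse, where a lone mouse is assumed to vary like the other group, gave 72 to 201 higher and 59 to 133 lower. In the other gated basal cells, with 190 higher and 68 lower, DESeq2 gave 125 and 40, no filter 55 and 15, at most 10% mitochondrial counts 82 and 22, and leaving out a mouse 223 to 549 and 78 to 242. For the difference, with 30 higher and 100 lower, no filter gave 56 higher, at most 10% mitochondrial counts 16 and 17, and leaving out a mouse 22 to 63 and 64 to 174. The log2 ratio of the member share, 1.52, was 1.20 with at most 10% mitochondrial counts and 1.35 to 1.70 without a mouse. The co-detection ratio of Aldh3a1 with Spock2, a mean of 4.22 over the 4 mice, was 6.23 in thinned cells. In control mice its mean went from 5.51 to 9.47, where 7 and 9 thinned cells held both genes. In CerS4epi-/- mice it went from 2.93 to 2.998.

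Of the changes of named genes, 3 reversed: Lce1a1 to -0.17 and Cdsn to 0.10 without the deepest 5% and immune-positive members, and Ninj2, whose difference ranged from -8.90 to 2.21 when a mouse was left out, without control mouse 2. Over all alternatives, 341 values of named genes kept their direction and their side of the threshold and 84 kept the direction only, 24 of these with at most 10% mitochondrial counts. Whether the replicate numbers pair the mice could not be decided. Deviations of same-numbered mice correlated at 0.0255 over 9274 genes and those of crossed mice at -0.0255. With 2 mice per genotype the second value is fixed by the first, and neither shows which mice were handled together. With the number as a replicate block, 156 genes were higher and 126 lower in members and 505 and 301 in the other gated basal cells, and all 24 named genes tested there kept their call.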

Other observations

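Besides the genes named above, 5 of 13 mitochondrially encoded genes and 6 of 91 ribosomal protein genes were higher in CerS4epi-/- members, where 0.658% of all genes tested were. mt-Co1, a subunit of respiratory complex IV, stood at 25383 and 23010 CPM in control and at 30158 and 28336 CPM in CerS4epi-/- members (log2 change 0.32, adjusted p = 0.0134, edgeR). The median mitochondrial share per member was higher in the same mice, as given in the report. Among genes of the actin cytoskeleton picked after their values were seen, Tpm1, a tropomyosin, went from 60.8 and 83.8 to 136 and 222 CPM (1.35, adjusted p = 0.0178), Enah, an actin filament elongation factor, from 43.3 and 41.2 to 86.8 and 86.5 CPM (1.08, adjusted p = 0.0134), and Actg1, cytoplasmic actin, from 4563 and 4707 to 3337 and 3740 CPM (-0.35, adjusted p = 0.0271).

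Apoe, an apolipoprotein, stood at 5742, 4965, 6587 and 8196 CPM in members and at 2358, 2668, 2474 and 3315 CPM in the other gated basal cells, and its change in members was 0.51 (adjusted p = 0.0196, edgeR). Krt77, a keratin of eccrine ducts and interfollicular cells, fell in members from 490 and 468 to 277 and 234 CPM (-0.86, adjusted p = 0.00484). Gata3, a factor of epidermal differentiation, fell from 550 and 631 to 380 and 322 CPM (-0.70, adjusted p = 0.0139). Car12, a carbonic anhydrase, rose from 78.4 and 43.6 to 232 and 215 CPM in members (1.88, adjusted p = 0.000994), more than in the other gated basal cells (difference 0.95, adjusted p = 0.00302). It was among the 3 higher genes that remained with at most 10% mitochondrial counts, at a change of 2.49. These genes were chosen after their values were seen.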
